A study of Mus musculus with 7 samples.

Results

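The genes described here are 10 AP-1 and immediate early factors, taken by name from the 28719 genes of the count files: Fos, Fosb, Fosl2, Jun, Junb, Jund, Atf3, Batf, Egr1 and Ier2. They were followed in single-cell RNA sequencing of mouse neutrophils, in which each transcript captured in a droplet is tagged with a unique molecular identifier (UMI) and counted once. Of the 10 genes, 7 had a row in every one of the 7 count files. Fosb and Egr1 had no row in the 3 files of the first healthy experiment (run 1) and Atf3 had none in its bone marrow file. The run 1 files held 0 rows without a count, so a missing row was read as 0.

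All mice were male C57BL/6J, and neutrophils were sorted as CD11b+ Ly6G+ cells that excluded propidium iodide. The healthy samples were blood, bone marrow and spleen in 2 runs, each a pool from the same 3 mice of that run, aged 6 weeks in run 1 and 8 weeks in run 2, so that age and run cannot be told apart. A hashtagged library, in which barcoded antibodies mark the origin of each cell, held 5 conditions processed together. One was healthy blood, for which the methods give no age in this library. Blood and joint lavage came from mice given K/BxN arthritogenic serum on days 0 and 2, at 8 weeks of age, and killed on day 7. Bronchoalveolar and peritoneal lavage came from 8-week-old mice 3 h after 25 ng of IL-1β given into the nose or the peritoneum. The mice dosed through the nose were anaesthetised with ketamine and xylazine. Each hashtagged condition was 1 pool of 3 mice, so that library carried no replicate check. Cells were kept at 4 °C with sodium azide and were encapsulated in under 2 h.

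Healthy cells entered when S100a8 and S100a9 together made up at least 3% of their UMIs, and hashtagged cells when the deposited ImmGen reference label began with GN, the code for neutrophils. This left 17607 of 21763 cells, 12755 of them healthy. The 15 neutrophil markers were detected in all 11 groups, with a summed level of 161385 to 503781 CPM (UMIs per 1000000 UMIs). S100a8 and S100a9, which chose the healthy cells, are among them, and the ImmGen labels were assigned from the same counts. The other 13 markers were all detected in each group, at a summed 19045 CPM in the arthritic joint to 144052 CPM in run 1 marrow. Total UMIs of the kept cells ran from 1360064 to 9104133 in the healthy libraries and from 942688 to 10293966 in the hashtagged conditions. Blood of run 2 stood apart, with 30345 CPM of the 5 erythroid markers against 252 to 912 CPM in the other healthy libraries, and the 6 B cell markers summed to 157 to 782 CPM in run 2 against 3.77 to 22.8 CPM in run 1. Pairs of files shared at most 36 cell barcodes, 0.942% of the smaller file.

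AP-1 is a dimer of basic leucine zipper (bZIP) proteins of the Fos, Jun, ATF and Batf families that binds short palindromic DNA elements. Its genes include classical immediate early genes, which are transcribed within minutes of a stimulus from factors already present in the cell, such as CREB and serum response factor, and whose messages are short-lived. Egr1 is a zinc-finger factor and Ier2 a small nuclear protein of the same early response. In myeloid cells these genes respond to cytokines, adhesion, microbial products and handling, and AP-1 sites are common in the enhancers of inflammatory genes.

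The promoters of the immediate early members are shown because those elements are part of what defines the class. Sequences are from the RefSeq promoter table on build GRCm38.p6, written 5′ to 3′ on the gene's strand from 120 bases before the RefSeq start site, and 8 of the 10 members had an entry. The stretches of Fos and Jun run up to that site, and those of Fosb and Batf stop 6 and 51 bases short of it, where an exon of the gene annotation begins. Capitals mark TGACG, the core of the cAMP response element to which CREB and ATF proteins bind, TGACATCA, the variant site of the Jun promoter, and TATAAA, the TATA box. Fos (chr12:85473770-85473889, plus strand), Fosb (chr7:19310052-19310165, minus strand), Jun (chr4:95052223-95052342, minus strand) and Batf (chr12:85686600-85686668, plus strand) read as follows.
Fos: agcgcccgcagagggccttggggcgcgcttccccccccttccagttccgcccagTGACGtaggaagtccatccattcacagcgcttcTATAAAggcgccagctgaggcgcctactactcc
Fosb: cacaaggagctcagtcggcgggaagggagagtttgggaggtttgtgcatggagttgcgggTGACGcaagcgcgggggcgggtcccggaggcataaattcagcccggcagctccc
Jun: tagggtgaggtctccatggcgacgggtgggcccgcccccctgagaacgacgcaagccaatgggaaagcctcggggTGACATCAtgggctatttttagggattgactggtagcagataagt
Batf: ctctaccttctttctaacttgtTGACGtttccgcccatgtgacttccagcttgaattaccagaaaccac

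In the 250 bases before the RefSeq start site, from which all distances are counted, and read on both strands, TGACG was present in 5 of the 8 members (Fos, Fosb, Junb, Atf3 and Batf) and in 17.8% of the 32851 promoters of the table. In Fos it began 66 and 129 bases before the start site, in Fosb 60, in Junb 106, in Batf 98 and in Atf3, on the opposite strand, 7. The TATA box of Fos began 33 bases before the start site. TGACATCA was found in Jun alone among the members, 45 bases before the start, and in 2.93% of all promoters. The consensus AP-1 site TGACTCA (4.46% of promoters) and the full element TGACGTCA (1.55%), which itself contains TGACG, were in 0 of the 8. TATAAA occurred in 12.4% of promoters. These are matches of letters in a short window, not measured binding.

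Across healthy tissues the members with counts in marrow were lowest there in both runs. Spleen lay between marrow and blood in run 1 for the 8 members detected, and in run 2 the blood to spleen ratio ran from 0.799 (Jun) to 1.93 (Fosb), leaving aside Egr1. Levels are CPM over the summed cells of a library, given as run 1 then run 2. Because they are sums over cells, fewer cells with a transcript and less transcript per cell cannot be told apart from them, and shares of cells are given further on.

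Fos, the partner of Jun proteins in the prototypical AP-1 dimer, was at 18.6 and 124 CPM in bone marrow, 41.7 and 427 CPM in spleen and 375 and 681 CPM in blood. Both blood libraries lay above both marrow libraries, whereas spleen of run 1 was below marrow of run 2. The run 1 spleen and marrow libraries were the lowest of the 6.

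Junb, a Jun family member that can restrain or replace Jun, was at 69.2 and 237 CPM in marrow, 328 and 1344 CPM in spleen and 1437 and 1624 CPM in blood. Jund, the most constitutively expressed Jun protein in many cell types, was at 124 and 161 CPM in marrow, 387 and 1770 CPM in spleen and 1096 and 1516 CPM in blood. For Junb both blood libraries lay above both spleen libraries, and for Jund the highest library of all was spleen of run 2. Jun itself was sparse, at 0.942 and 2.31 CPM in marrow (4 and 21 UMIs), 7.44 and 32.7 CPM in spleen and 30.9 and 26.1 CPM in blood. Its marrow libraries lay below all 4 others.

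Atf3, a stress-induced bZIP repressor of inflammatory genes, was at 0 and 1.65 CPM in marrow, 9.68 and 62.4 CPM in spleen and 27.9 and 55.2 CPM in blood. In marrow of run 1 the limit set by a count of 0 (3 UMIs) was 0.706 CPM. Batf, which lacks a transactivation domain and pairs with Jun proteins, was at 13.4 and 16.5 CPM in marrow, 26.8 and 63.9 CPM in spleen and 52.2 and 63.2 CPM in blood. For both genes the marrow libraries lay below all 4 others.

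Fosl2, the Fos relative also called Fra-2, was at 62.2 and 121 CPM in marrow, 77.4 and 268 CPM in spleen and 152 and 306 CPM in blood. Ier2 differed least, with 194 and 241 CPM in marrow, 208 and 406 CPM in spleen and 373 and 435 CPM in blood. For both, blood lay above marrow in both runs and spleen overlapped marrow.

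Fosb and Egr1 were sparse or at 0 in the run 1 and run 2 libraries, whereas hashtagged healthy blood, described further on, held 49.8 and 29.3 CPM. Fosb gave 0 UMIs in marrow of run 2 (limit 0.330 CPM), 14 UMIs in spleen (7.16 CPM) and 48 UMIs in blood (13.8 CPM). Egr1 gave 0 UMIs in marrow, 1 UMI in spleen and 2 UMIs in blood of run 2. In run 1, which lists neither gene, the limits of a count of 0 were 0.706 CPM in marrow, 1.12 CPM in spleen and 2.21 CPM in blood.

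**Figure D1:**
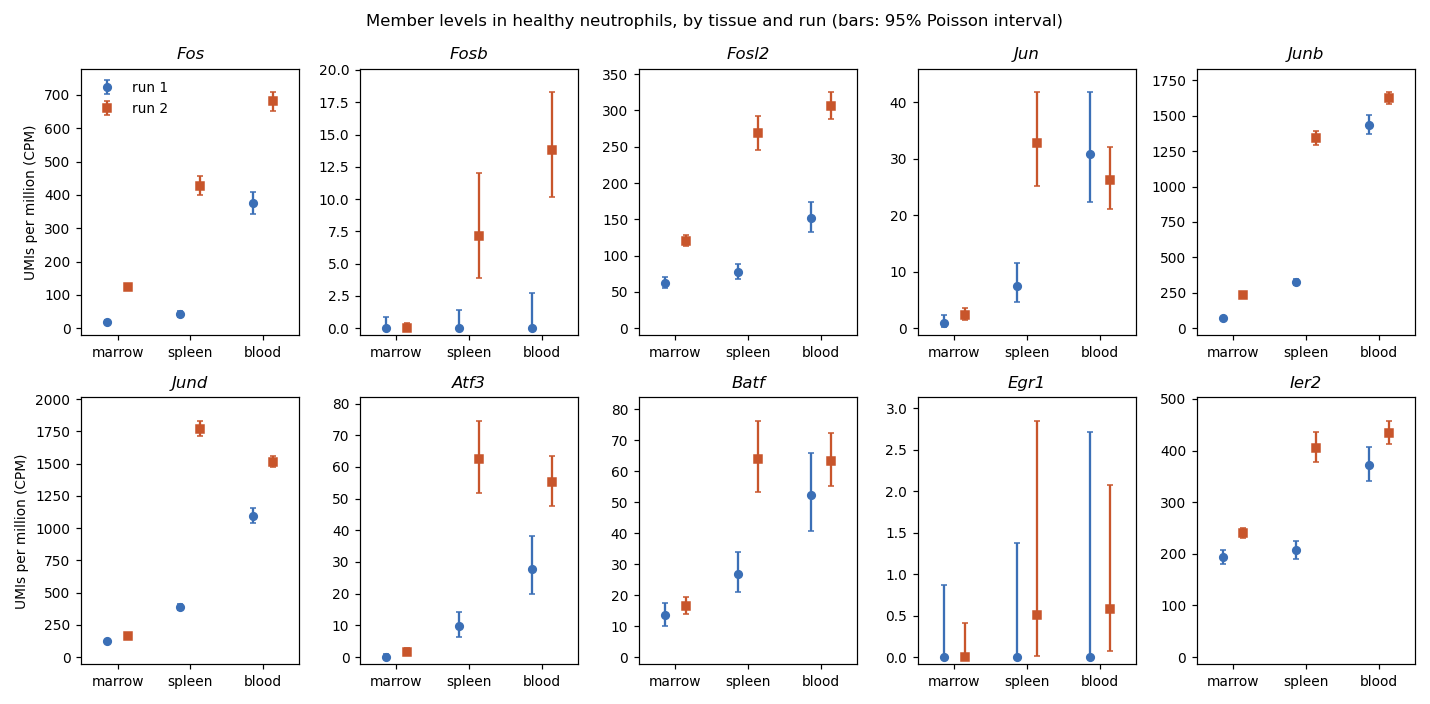
Levels of the 10 members in healthy neutrophils, in CPM on linear axes, 1 point per library with its 95% Poisson interval (counting error only) and run 1 and run 2 marked separately, by tissue. The bone marrow points of Atf3, Jun, Junb, Jund and Batf lie below every spleen and blood point.

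The question of whether the tissues differ was put to edgeR's quasi-likelihood test on the summed counts of the 6 healthy libraries, with run as a block because a run used a single set of mice for its 3 tissues. A gene was called at a Benjamini-Hochberg adjusted p under 0.05 over the 7667 genes tested. Of the members 8 were tested, since Fosb and Egr1 had no row in run 1.

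Between blood and bone marrow, 7 of the 8 members were called higher in blood and 0 lower, against 12.0% of all genes called higher and 10.1% lower. The median log2 difference was 3.04 over the members tested and -0.03 over all genes. Atf3 differed most, with a log2 difference of 5.29 ± 0.56 (SE, n = 2 libraries per tissue, edgeR adjusted p = 0.0027), followed by Jun at 3.79 ± 0.52 (adjusted p = 0.0049) and Junb at 3.34 ± 0.44, or 10.1-fold (adjusted p = 0.0045). Fos rose by 3.17 ± 0.51 (adjusted p = 0.0082) and Jund by 2.90 ± 0.38 (adjusted p = 0.0044). Batf and Fosl2 rose less, by 1.66 ± 0.25 (adjusted p = 0.0063) and 1.04 ± 0.21 (adjusted p = 0.0158). Ier2, at 0.61 ± 0.21, did not pass (adjusted p = 0.0752). For 8 of the 10 members both blood libraries were above both marrow libraries, against 43.3% of all genes tested.

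The blood to marrow ratio could be read in each run alone. In run 1 it was 20.2 for Fos (95% interval of counting error 15.9 to 25.9), 20.8 for Junb, 8.82 for Jund and 1.92 for Ier2, and Atf3 was at least 39.6-fold higher, taking a count of 0 as 3 UMIs per library. The Fos ratio divides by 79 UMIs in run 1 marrow, and the part of free RNA in them was not measured. In run 2 it was 5.50 for Fos, 6.87 for Junb, 9.39 for Jund, 1.81 for Ier2 and 33.5 for Atf3, and Fosb was at least 41.8-fold higher. The ratios of Fos and Junb were thus larger in run 1, and those of Fosl2 (2.45 and 2.54), Batf (3.89 and 3.84) and Ier2 were alike in the 2 runs. That of Jun was larger in run 1 too, at 30.9 against 0.942 CPM, beside 26.1 against 2.31 CPM in run 2. Its marrow levels rest on 4 and 21 UMIs, with overlapping intervals (0.257 to 2.41 and 1.43 to 3.53 CPM). Run 1 blood held 704 CPM of erythroid markers and run 1 marrow 912 CPM, and in run 2 the values were 30345 and 303 CPM. Platelet markers were at 91.2 and 147 CPM in blood and 0 to 3.06 CPM in marrow and spleen. Of the tested markers of other cell types, 2 of 4 platelet, 1 of 4 B cell (Ms4a1, 3.20-fold, edgeR adjusted p = 0.0293), 1 of 2 T cell (Cd3g, 12.3-fold, adjusted p = 0.0318), 1 of 2 NK cell (Gzma, adjusted p = 0.0461, with 0 UMIs in both marrow libraries), 2 of 8 monocyte and macrophage (among them Csf1r, 6.49-fold, adjusted p = 0.0044) and 1 of 1 eosinophil marker (Siglecf, 7.38-fold, adjusted p = 0.0111) were called higher in blood, and 3 monocyte and macrophage markers lower. Of 4 erythroid markers 0 were called, with a median log2 difference of 3.72. In blood and marrow, run 1 then run 2, the 6 T cell markers, of which Cd4 was at 0 in each, summed to 36.8 and 31.9 CPM against 32.5 and 27.5 CPM, the 4 NK cell markers to 35.3 and 5.75 CPM against 35.8 and 13.9 CPM, the 11 monocyte and macrophage markers to 640 and 269 CPM against 1391 and 1020 CPM, and the 3 eosinophil markers, of which Epx was at 0 in each, to 15.4 and 14.65 CPM against 2.12 and 1.43 CPM. Of the monocyte and macrophage sums, Ly6c2 alone gave 477 and 141 CPM in blood and 1342 and 969 CPM in marrow. Ly6c2 was also lower in granule-low neutrophils, described further on, so these sums do not count monocytes alone. Csf1r was at 114 and 91.1 CPM in blood and 11.3 and 14.9 CPM in marrow. The part of RNA from other cell types in the result was not tested.

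Without run as a block, the same 7 genes had log2 differences of 1.04 to 5.05 and 0 of 8 passed, with edgeR adjusted p from 0.0618 for Jun to 0.3589 for Fosl2. Of all 7667 genes 100 were then called higher and 101 lower. Without the rule on S100a8 and S100a9, when every deposited cell was summed, 0 of 8 passed, and 0 of all 8976 genes, so the loss is not particular to the members. Leaving out either blood library leaves blood with 1 library, and fewer members and fewer genes in all were then called. Without blood of run 1 and without blood of run 2, the log2 difference was 3.18 and 4.88 for Jun, 2.18 and 4.04 for Fos and 2.59 and 3.99 for Junb. That of Atf3 ran from 4.97 without marrow of run 1 to 8.75 without marrow of run 2, when the one marrow library left held 0 UMIs of it. Lineage-marked cells had 2 or more UMIs of B, T, NK, monocyte and macrophage or erythroid markers. Leaving them out kept 2 cells of run 2 blood, 175 of 1206 in run 1 marrow and 1101 of 3426 in run 2 marrow. Ly6c2 is among those markers, so the filter does not take out other lineages alone. Atf3, Fos and Jun then passed and Fosl2 was at -0.0571, beside 155 genes higher and 201 lower of 4514.

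Between spleen and bone marrow, 5 of the 8 members were called higher in spleen, against 2.23% of all genes higher and 0.522% lower. They were Atf3 (log2 difference 4.87 ± 0.56, edgeR adjusted p = 0.0137), Jun (3.19 ± 0.53, adjusted p = 0.0307), Jund (2.44 ± 0.37, adjusted p = 0.0269), Junb (2.19 ± 0.41, adjusted p = 0.0428) and Batf (1.34 ± 0.25, adjusted p = 0.0400). Fos at 1.32 ± 0.48, Fosl2 at 0.59 ± 0.21 and Ier2 at 0.27 ± 0.21 did not pass (adjusted p = 0.2323, 0.2228 and 0.5667). The same 5 genes were those whose spleen libraries both lay above both marrow libraries, which 25.1% of all genes did. Here too 0 of 8 passed without the block or with every cell summed, where 0 genes in all were called. The calls also depended on both blood libraries, which enter the shared fit. With lineage-marked cells left out, which kept 175 and 1101 marrow cells, 3 passed (Atf3, Jun and Batf), beside 256 genes higher and 279 lower of 4514. So did 3 after a filter on mitochondrial share and genes per cell (Atf3, Jun and Jund), beside 108 higher and 0 lower of 7463. The log2 difference of Atf3 ran from 4.14 without spleen of run 2 to 8.34 without marrow of run 2, and that of Junb from 1.77 without marrow of run 1 to 2.74 without marrow of run 2. Without spleen of run 2 and without spleen of run 1, Jun was at 2.16 and 3.72, Jund at 1.72 and 3.04 and Batf at 1.05 and 1.56, and 2 of 8 passed without spleen of run 2. The smallest adjusted p without the block was 0.2927, for Jun. Of 4 tested B cell markers, Ms4a1 (11.4-fold, edgeR adjusted p = 0.0137) and Cd79a (4.31-fold, adjusted p = 0.0199) were also called higher in spleen, as was Csf1r of 8 monocyte and macrophage markers (3.59-fold, adjusted p = 0.0432). The 6 B cell markers summed to 21.2 and 782 CPM in spleen and 3.77 and 157 CPM in marrow, with Ighm and Ighd at 0 in both run 1 libraries, and the 11 monocyte and macrophage markers to 1157 and 356 CPM in spleen and 1391 and 1020 CPM in marrow. The cells left out of run 1 spleen held Junb at 534 CPM and Jund at 655 CPM, above the 328 and 387 CPM of those kept, and those left out of run 2 spleen held Junb at 256 CPM and Jund at 810 CPM, below the 1344 and 1770 CPM of those kept. Ly6c2 alone gave 1097 and 221 CPM of the monocyte and macrophage sums in spleen and 1342 and 969 CPM in marrow. Csf1r was at 30.1 and 85.4 CPM in spleen and 11.3 and 14.9 CPM in marrow. The part of other cell types in the result was not tested.

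Between blood and spleen, 0 of the 8 members were called by edgeR, in a comparison with few calls (4 genes of 7667, 0.0522% higher and 0% lower, and 794 genes at an unadjusted p under 0.05). Fos at 1.85 ± 0.49 and Junb at 1.15 ± 0.40 had the smallest unadjusted p among the members, 0.0070 and 0.0241, with adjusted p = 0.3749 and 0.4483. DESeq2 called 1 of 8, beside 7 genes higher and 23 lower of 5140. Junb alone did not overlap, against 17.3% of all genes. The runs went apart here: the blood to spleen ratio of Fos was 9.00 in run 1 and 1.59 in run 2, that of Junb 4.38 and 1.21, and that of Jund 2.84 and 0.856. In run 1, 55.0% of spleen cells were granule-low (secondary granule genes under 2% of UMIs) and in run 2 96.7%, while blood held 88.4% and 99%.

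Between runs, Fos (2.27 ± 0.41 on the log2 scale, edgeR adjusted p = 0.0258) and Fosl2 (1.23 ± 0.17, adjusted p = 0.0073) were called higher in run 2 over the 3 tissues, against 3.34% of all genes called higher and 0.978% lower. Atf3 at 1.83 ± 0.40 (adjusted p = 0.0536) and Junb at 1.31 ± 0.33 (adjusted p = 0.0954) did not pass. With every deposited cell summed 0 of 8 passed, beside 56 genes higher and 34 lower of 8976. DESeq2 and the fit without the low-count filter each called 5 of 8 (Fos, Fosl2, Atf3, Junb and Jund). Beside them DESeq2 called 306 genes higher and 147 lower of 7667, and the unfiltered fit 381 and 127 of 9105. In spleen run 2 exceeded run 1 by 10.2-fold for Fos, 6.45-fold for Atf3, 4.58-fold for Jund and 4.10-fold for Junb, and in blood the ratios were 1.82, 1.97, 1.38 and 1.13. In marrow they were 6.66 for Fos, 1.30 for Jund and 3.42 for Junb, and Atf3 was at least 2.33-fold higher. Of 7 heat shock genes tested, Dnaja1 (4.44-fold) and Hspa8 (4.14-fold), chaperones of the general stress response, were also called higher in run 2. All 4 tested B cell markers were too. In granule-low cells alone Fos (1.5529, edgeR adjusted p = 0.0037) and Fosl2 (1.0758, adjusted p = 0.0015) were called higher in run 2. Beside them 277 genes were called higher and 123 lower of 6013. Atf3 at 1.0511, Junb at 0.5930 and Jund at 0.3884 did not pass. Granule-low cells were 55.0% and 96.7% of spleen and 34.4% and 49.9% of marrow neutrophils in run 1 and run 2. Age, run, its handling and the counting software version, which differed by the paper's methods, cannot be told apart. The part of these shares and of B cell RNA in the differences was not tested.

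Bone marrow holds immature neutrophils that are still making secondary granule proteins. As a coarse division by this stage of maturation, the cells of each healthy library were split by the share of UMIs from Camp, Ngp, Ltf and Lcn2, 4 secondary granule genes, at 2%. Granule-low cells made up 34.4% and 49.9% of marrow neutrophils in run 1 and run 2. Between 6 and 282 cells of a library lay between 1.5% and 2.5%.

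Within each of the 6 libraries, granule-low cells had higher levels than granule-high cells of Fos, Fosl2, Junb, Jund, Batf and Ier2. Junb was at 239 CPM in granule-low and 28.3 CPM in granule-high marrow cells of run 1, and at 543 and 99.03 CPM in run 2. The spleen values were 1207 against 40.5 CPM in run 1 and 1547 against 78.4 CPM in run 2. The blood values were 1908 against 128 CPM and 1688 against 144 CPM. The 2 fractions of Junb thus did not overlap, even between tissues: the lowest granule-low library was above the highest granule-high library.

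Fos ran from 64.4 to 705 CPM in granule-low cells, lowest in marrow of run 1 and highest in blood of run 2, and from 7.60 to 128 CPM in granule-high cells. Jund ran from 339 to 2036 CPM in granule-low cells and from 71.3 to 200.3 CPM in granule-high cells. Batf ran from 21.9 to 74.0 CPM against 2.78 to 16.0 CPM, with 1 to 3 UMIs in the granule-high cells of blood and of run 2 spleen. Ier2 moved least, from 277 to 444 CPM against 171 to 256 CPM.

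In edgeR's test with library as a block, 6 of the 6 members that passed the low-count filter were called higher in granule-low cells, against 22.8% of 5408 genes called higher and 22.2% lower. Junb differed by 3.28 ± 0.22 on the log2 scale (n = 6 libraries, adjusted p = 8.808e-08), Jund by 2.81 ± 0.23 (adjusted p = 3.850e-07) and Fos by 2.5 ± 0.17 (adjusted p = 7.957e-08). Batf differed by 1.56 ± 0.28, Fosl2 by 1.11 ± 0.18 and Ier2 by 0.48 ± 0.12, the last with adjusted p = 0.0038. Each of these 6 genes was higher in the granule-low cells of 6 of 6 libraries. Jun and Atf3, which were too sparse for the filter, were higher in 5 of 6. In run 1 marrow Jun had 0 UMIs in granule-low and 4 UMIs in granule-high cells, and Atf3 had 0 in both. Without the filter, 8 of the 8 members were called higher, beside 1743 genes higher and 1555 lower of 9105. Granule-low cells were also shallower, with a median of 768 to 1731 UMIs per cell against 2281 to 3743 by library, and 4 of 4 tested erythroid markers were called higher in them. So were 2 of 2 B cell markers (Cd79b, 2.51-fold, edgeR adjusted p = 0.0010, and Ebf1, 1.92-fold, adjusted p = 0.0280), 1 of 2 monocyte and macrophage markers (Csf1r, 6.87-fold, adjusted p = 1.179e-06, with Ly6c2 lower) and 2 of 7 heat shock genes (Hspe1, 1.98-fold, adjusted p = 0.0111, and Dnaja1, 1.46-fold, adjusted p = 0.0072). Of the T and NK cell markers 0 of 1 each were called. The part of depth and of RNA from these cells was not tested.

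Along finer steps of granule gene share Junb, Fos, Jund and Ier2 fell at each step in both marrow libraries. In run 2, Junb was at 682 CPM in cells under 0.5%, 488 CPM from 0.5% to 2%, 235 CPM from 2% to 5%, 119 CPM from 5% to 10% and 34.0 CPM above 10%. Fos in the same 5 bins was at 269, 253, 165, 73.3 and 17.1 CPM. In run 1 both genes fell in the same order, Junb from 371 to 16.0 CPM and Fos from 76.6 to 3.37 CPM. Ier2 went only from 320 to 175 CPM in run 2 and from 285 to 158 CPM in run 1. Fosl2 fell at each step in run 2, from 263 to 33.7 CPM, but not in run 1, where it was at 123, 98.5, 150.2, 61.4 and 32.9 CPM. Batf was lowest in the bin from 5% to 10% in both runs, at 7.32 and 9.39 CPM, and at 13.1 and 11.7 CPM above 10%. Each bin sums 153 to 1186 marrow cells.

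**Figure D2:**
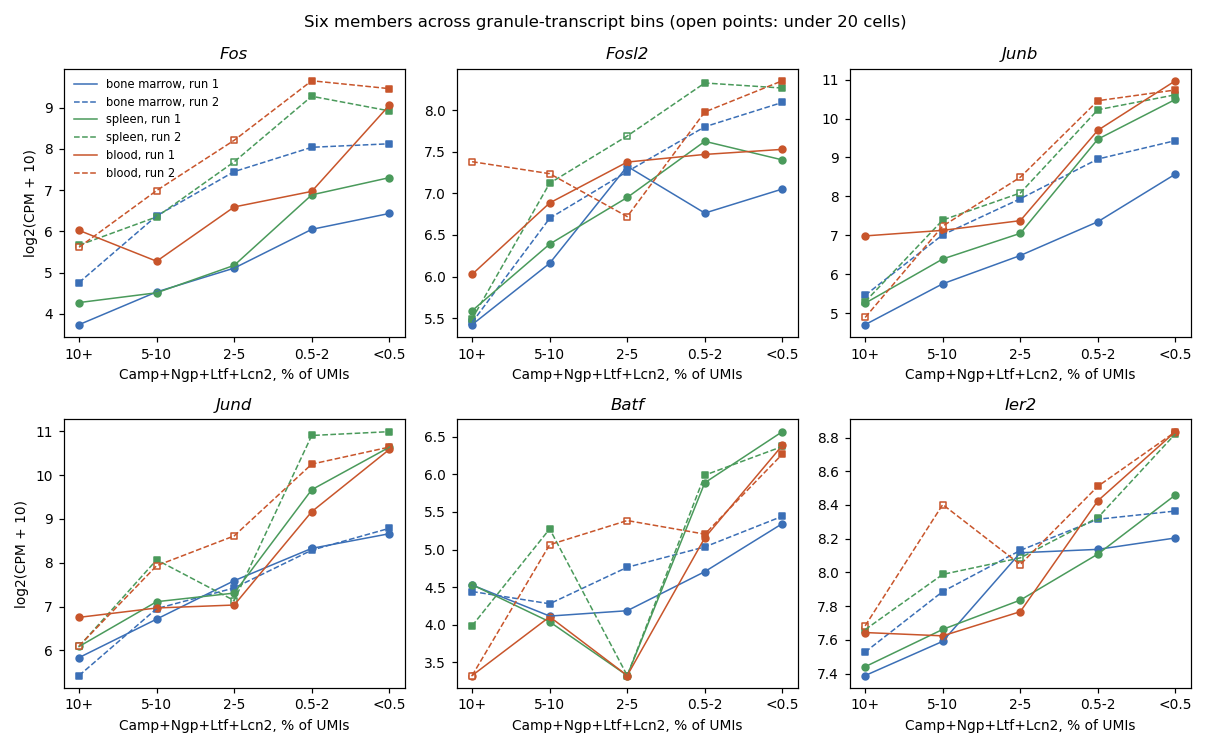
Levels of 6 members as log2(CPM + 10) against bins of the share of UMIs from 4 secondary granule genes, from 10% and over on the left to under 0.5% on the right, 1 line per healthy library, with open points for bins under 20 cells and no error bars. In both marrow libraries Junb and Fos climb at each step to the right, Junb from 34.0 to 682 CPM in run 2.

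When granule-low cells alone were compared, 6 of the 8 members were called higher in blood than in marrow and 0 lower, against 6.84% of 6013 genes higher and 6.95% lower. Atf3 was 10.9-fold higher in blood than in marrow (log2 difference 3.44 ± 0.41, edgeR adjusted p = 7.185e-04), Jun 6.62-fold (adjusted p = 0.0078), Junb 3.68-fold (adjusted p = 0.0035), Jund 3.37-fold (adjusted p = 6.819e-04), Fos 3.35-fold (adjusted p = 0.0055) and Batf 2.07-fold (adjusted p = 0.0125). The log2 differences of Junb, Jund and Fos were 1.88, 1.75 and 1.75, beside 3.34, 2.90 and 3.17 over all neutrophils, and the difference between the fits was not tested. Granule-low cells are not matched for stage between tissues. Those from 0.5% to 2% were 250 of 415 in marrow, 164 of 624 in spleen and 60 of 1155 in blood of run 1. In run 2 they were 1186 of 1708, 93 of 1944 and 167 of 3634. The part of stage within the fraction was not tested. Fosl2 at 0.16 ± 0.19 and Ier2 at 0.19 ± 0.19 did not pass (adjusted p = 0.6366 and 0.5575). Between spleen and marrow the same 5 genes as over all neutrophils passed, against 5.59% of genes higher and 5.67% lower, with Fos at 0.54 ± 0.31 (adjusted p = 0.3405).

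By cell, the share of neutrophils with at least 1 UMI was compared after thinning every healthy cell to 500 UMIs, which left out 26 cells of run 1 blood. The share with Junb was 5.31% and 14.8% in marrow, 25.6% and 49.5% in spleen, then 52.1% and 55.8% in blood (run 1 and run 2). For Fos the shares were 1.33% and 7.53%, 3.44% and 19.3%, then 18.1% and 27.8%. Jund reached 59.1% in run 2 spleen, above the 52.2% of run 2 blood. Without thinning the Junb shares were 17.2% and 39.5% in marrow and 66.8% and 72.5% in blood, at medians of 2699 and 2134 UMIs per marrow cell and 810 and 826 per blood cell. Free RNA in the droplets sets a background, read here in 717 red cells of run 2 blood (median 2753 UMIs), where after thinning Junb was in 2.37%, Fos in 1.53% and Jund in 5.02%. The run 1 marrow share of Fos (95% binomial interval 0.760 to 2.15%) overlaps that of the red cells (0.768 to 2.73%). The 0% and 0.117% of marrow cells with Jun lie under the 0.513% that 0 of 717 red cells allows by the same interval. The red cells are of another library, so they set no floor for marrow, where the background was not measured. These small shares are therefore not read as expression by cell.

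The members were detected in few combinations at this depth. After thinning, 74.7% and 57.8% of marrow cells held 0 of the 10 members, against 47.9% and 13.5% in spleen and 21.6% and 12.0% in blood. In run 1 blood, Junb was found in 66.4% of cells with Fos and 49.0% of cells without it, and in run 2 blood in 57.9% and 55.0%. The first pair of intervals is apart (59.9 to 72.4% and 45.9 to 52.0%) and the second overlaps.

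In the hashtagged library Egr1 and Fosl2 were past 2-fold above healthy blood at all 3 inflamed sites, where the other members past it differed by site. They were Fos, Fosb, Jun and Atf3 in the joint, Junb in the lung and Batf in the peritoneum. This division depends on the scaling, since with TMM factors in place of library totals Jun, Junb and Ier2 were also past 2-fold at all 3 sites, with ratios in joint, lung and peritoneum of 5.45, 2.15 and 2.1 for Jun, 2.13, 3.80 and 2.99 for Junb and 2.20, 3.60 and 3.28 for Ier2. Levels are CPM with 95% Poisson intervals of counting error, no test was possible with 1 pool per condition, and intervals do not cover differences between mice. A gene counted as changed when it was past 2-fold and at 50 CPM or more in at least 1 of the 2 conditions compared.

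Egr1 was at 29.3 CPM (20.2 to 41.2) in healthy blood, 22.7 CPM (17.3 to 29.1) in arthritic blood, 979 CPM (960 to 998) in the joint, 855 CPM (806 to 906) in the lung and 137 CPM (114 to 163) in the peritoneum. The 2 blood samples overlapped, and the joint and lung lay far above the peritoneum and the peritoneum above both bloods. Thinned to 1000 UMIs, 44.1% of joint cells and 38.8% of lung cells held an Egr1 UMI, against 12.1% in the peritoneum, 2.23% in arthritic blood and 1.98% in healthy blood. Cells under 1000 UMIs were left out of these and the later thinned shares: 155 of 509 in healthy blood, 140 of 814 in arthritic blood, 123 of 2857 in the joint, 94 of 380 in the lung and 61 of 292 in the peritoneum. Without thinning the Egr1 shares were 65.1% in the joint, 51.8% in the lung, 21.2% in the peritoneum, 5.90% in arthritic blood and 4.91% in healthy blood. In healthy blood the 149 cells matched to the reference GN.UrAc.PC held Egr1 at 91.5 CPM (41.9 to 174, 9 UMIs), against 23.6 CPM (15.1 to 35.1) in the 353 matched to GN.Bl. Red cells of run 2 blood held it in 0% of 717, though in another library and at 500 UMIs.

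Fos was at 410 CPM in healthy blood, 418 CPM in arthritic blood, 1065 CPM in the joint, 377 CPM in the lung and 150 CPM in the peritoneum. The joint was highest and the peritoneum lowest, and the intervals of both bloods and the lung overlapped. Fosb followed with 49.8, 43.1, 155, 6.81 and 15.9 CPM in the same order of conditions, and its lung and peritoneal values rest on 9 and 15 UMIs. Atf3, at 97.8, 77.6, 318, 64.3 and 25.5 CPM, had the same high joint and low peritoneum.

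Jun was at 55.1 CPM in healthy blood, 27.1 CPM in arthritic blood, 204 CPM in the joint, 63.6 CPM in the lung and 61.5 CPM in the peritoneum. It was the joint that stood apart, with the lung, peritoneum and healthy blood overlapping one another. Junb was at 1494, 1264, 2164, 3041 and 2373 CPM, highest in the lung and with all 3 inflamed sites above both bloods. Jund ran the other way, at 1365, 1158, 841, 752 and 1389 CPM, with the joint and lung lowest and the peritoneum overlapping healthy blood.

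Batf was at 49.8 CPM (37.6 to 64.7) in healthy blood, 43.4 CPM in arthritic blood, 27.6 CPM in the joint, 97.7 CPM (81.5 to 116) in the lung and 709 CPM (656 to 764) in the peritoneum. The peritoneum stood above all other conditions, and the joint was lowest. After thinning, 47.6% of peritoneal cells held a Batf UMI, against 2.89% to 10.1% in the other 4 conditions.

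Fosl2 was at 337 and 428 CPM in the healthy and arthritic blood, and at 739, 755 and 796 CPM in the joint, lung and peritoneum. All 3 inflamed sites lay above both bloods, and their intervals overlapped from joint to lung and from lung to peritoneum. Ier2 was at 277, 323, 415, 534 and 484 CPM, with the same split and a narrower range.

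**Figure D3:**
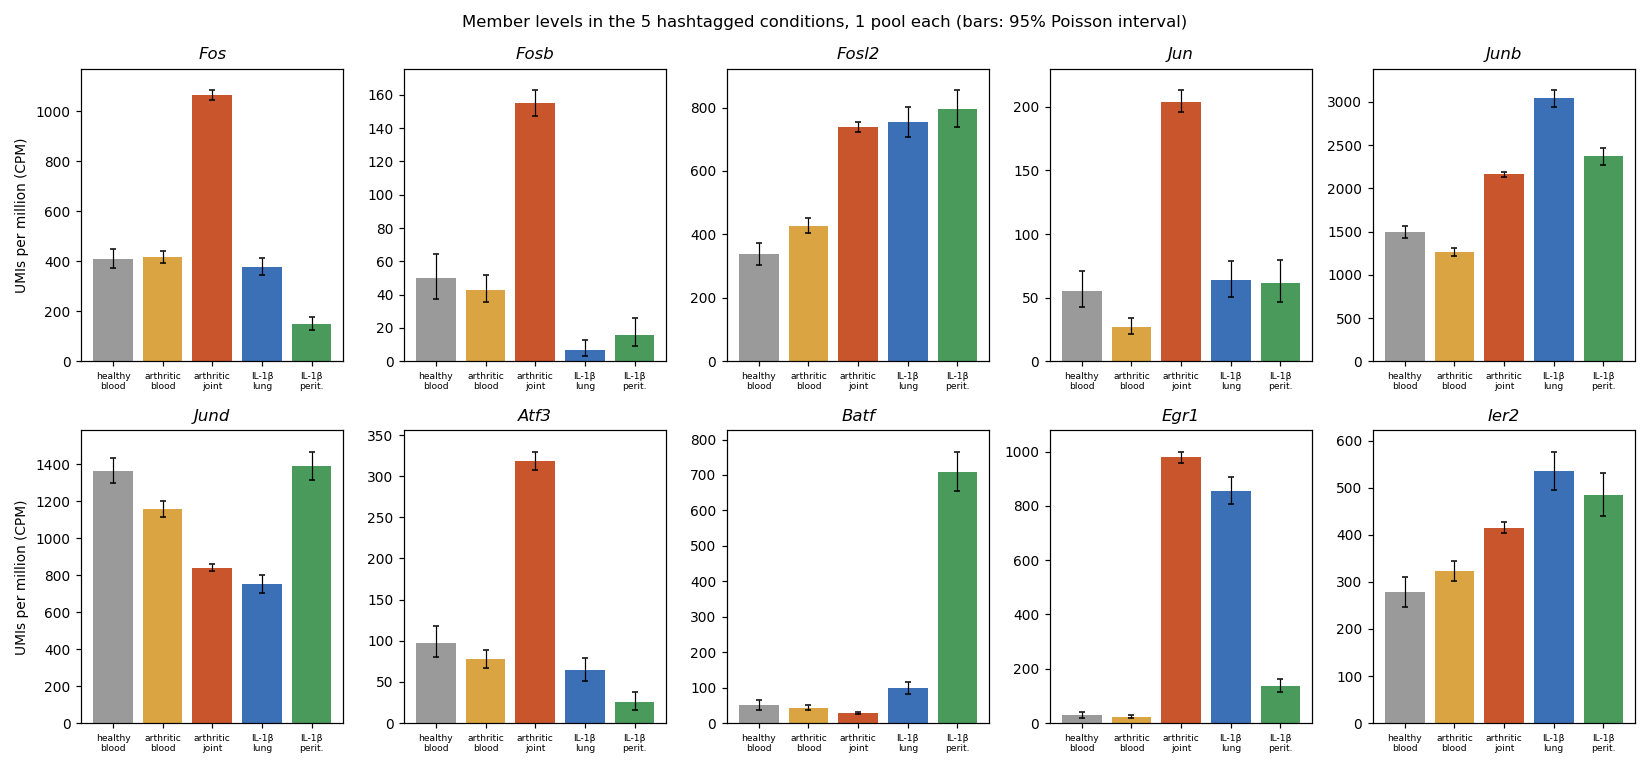
Levels of the 10 members in the 5 hashtagged conditions, in CPM on linear axes that start at 0, 1 bar per condition (1 pool each) with its 95% Poisson interval (counting error only). Egr1 in joint and lung (979 and 855 CPM) and Batf in the peritoneum (709 CPM) stand far above healthy blood (29.3 and 49.8 CPM).

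Against healthy blood, joint neutrophils had 6 of 9 members past 2-fold higher and 0 lower, where 12.2% of 2882 genes were past 2-fold higher and 20.3% lower. Egr1 was 33.4-fold higher (95% interval 23.7 to 48.5), Jun 3.71-fold, Atf3 3.25-fold, Fosb 3.11-fold, Fos 2.60-fold and Fosl2 2.19-fold (1.98 to 2.44). Junb at 1.45-fold, Ier2 at 1.5-fold and Jund at 0.617-fold were inside. Fosb and Egr1 reached the 50 CPM minimum only through the joint, where they are high, while Batf, at 0.554 of healthy blood (0.415 to 0.752), was under it in both and was not counted, so the count is a description. With a minimum of 10 CPM, 6 of 10 were higher and 0 lower. The Egr1 ratio moved to 21.7 as a mean over cells and to 50.7 in cells thinned to 1000 UMIs, where Batf was at 0.408 and past 2-fold lower. With TMM scaling in place of the total, which moved the median of all genes by 0.556 on the log2 scale, 8 of 9 members were past 2-fold higher and 0 lower, beside 23.4% and 4.47% of all genes. The share of higher genes among all genes past 2-fold moved from 37.5% to 83.9%.

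The arthritic mice also gave blood, which served as the second reference for the joint. Joint neutrophils had 5 of 9 members past 2-fold higher than arthritic blood and 0 lower, where 16.0% of genes were higher and 8.42% lower. They were Egr1 (43.2-fold, 33.6 to 56.5), Jun (7.53-fold), Atf3 (4.10-fold), Fosb (3.60-fold) and Fos (2.55-fold). Jun, Fosb and Egr1 reached 50 CPM in the joint alone of these 2 conditions, so this count too is a description. The Egr1 ratio was 28.5 as a mean over cells. The same 5 passed with TMM scaling, where 18.7% of all genes were higher and 7.08% lower. Arthritic blood itself had 0 of 7 members past 2-fold higher than healthy blood and 1 lower, Jun at 0.492-fold (0.346 to 0.701), where 0.639% of genes were higher and 2.97% lower. Jun reached the minimum only through healthy blood, where it is high. With TMM scaling, which shifted the median by 0.461, Jun was inside 2-fold and the ratios of Junb, Jund, Atf3, Fosb, Batf and Egr1, which had run from 0.772 (Egr1) to 0.873 (Batf), were all above 1. It put 0 members past 2-fold, beside 3.13% of all genes higher and 0.138% lower. In thinned cells Egr1 was at 1.58 and Batf at 0.566. The higher share among all genes past 2-fold went from 17.7% to 95.8%.

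Lung neutrophils had 3 of 9 members past 2-fold higher than healthy blood and 0 lower, where 14.4% of genes were higher and 44.7% lower. They were Egr1 (29.1-fold, 20.6 to 42.5), Fosl2 (2.24-fold) and Junb (2.04-fold, 1.92 to 2.16). Batf at 1.96-fold (1.42 to 2.73) and Ier2 at 1.93-fold (1.68 to 2.21) lay just inside. Fosb was at 0.137 of healthy blood (0.0595 to 0.279, from 9 and 56 UMIs) and was not counted because both conditions were under 50 CPM, healthy blood at 49.8 CPM. With a minimum of 10 CPM, 3 of 10 were higher and 1, Fosb, lower. Batf and Egr1 were counted only through their lung level. The Egr1 ratio was 19.4 as a mean over cells and 48.8 in thinned cells, where that of Fosb was 0.286. As a mean over cells Junb was inside 2-fold at 1.87 and Batf past it at 2.18. In thinned cells Ier2 was past it at 2.06 and Atf3 past it on the lower side at 0.476. TMM scaling shifted the median by 0.901 and put 6 of 9 past 2-fold higher and 0 lower, beside 33.4% and 14.4% of all genes, and it turned the ratios of Fos, Atf3 and Jund from 0.920, 0.658 and 0.551 to 1.72, 1.23 and 1.03. The higher share among all genes past 2-fold went from 24.4% to 69.9%.

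Peritoneal neutrophils had 3 of 9 members past 2-fold higher and 2 lower, where 14.5% of genes were higher and 45.5% lower. Batf was 14.2-fold higher (10.8 to 19.1), Egr1 4.67-fold (3.16 to 7.06) and Fosl2 2.36-fold (2.08 to 2.68). Fos was at 0.365 of its level in healthy blood (0.300 to 0.442) and Atf3 at 0.260 (0.160 to 0.408). Fosb, at 0.320 (0.168 to 0.573, from 15 and 56 UMIs), was again under the minimum in both conditions, Batf and Egr1 were counted only through their peritoneal level, and Atf3 only through healthy blood. With a minimum of 10 CPM, 3 of 10 were higher and 3 lower. The Egr1 ratio was 3.59 as a mean over cells and 8.76 in thinned cells, and that of Atf3 was 0.170 without lineage-marked cells (2 or more UMIs of markers of other cell types). With TMM scaling, which shifted the median by 0.911, Atf3 was at 0.490 and still past 2-fold, Fos was at 0.686 and inside it, 6 of 9 members were past 2-fold higher and 1 lower, beside 33.0% and 13.2% of all genes, and the higher share among all genes past 2-fold went from 24.1% to 71.4%.

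The 2 sites that received IL-1β shared dose and time and differed in route, site and volume. The methods name anaesthesia, with ketamine and xylazine, only for the mice dosed through the nose. Route, site, volume and anaesthesia cannot be told apart. Lung against peritoneum had 3 of 9 members past 2-fold higher and 1 lower, where 7.78% of genes were higher and 8.66% lower. Egr1 was 6.25-fold higher in the lung (5.20 to 7.55), Atf3 2.53-fold and Fos 2.52-fold (2.09 to 3.06), and Batf was at 0.138 of its peritoneal level (0.113 to 0.167). Atf3 reached 50 CPM only in the lung, where it is high, with 24 UMIs in the peritoneum. In cells thinned to 1000 UMIs the Atf3 ratio was 1.51 and inside 2-fold, and it was 3.80 with lineage-marked cells left out. Jund was at 0.542, just inside, and past it in thinned cells, and Fosl2 at 0.949 (0.862 to 1.04). TMM scaling moved the median by less than 0.1 here, and the same members were past 2-fold, beside 7.90% of all genes higher and 8.69% lower. The comparisons with healthy blood share that sample, so their ratios are not independent of one another.

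**Figure D4:**
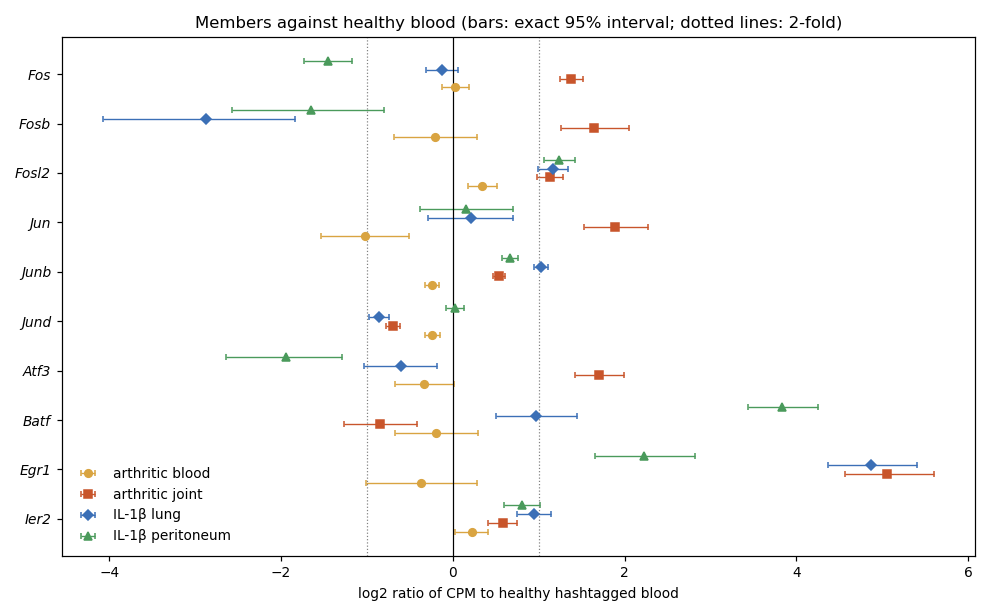
Log2 ratios of each member's CPM to healthy hashtagged blood in the other 4 conditions, with exact 95% intervals (counting error only) and dotted lines at 2-fold either way. Egr1 lies far to the right for joint and lung (33.4-fold and 29.1-fold) and Batf for the peritoneum (14.2-fold), while peritoneal Fos and Atf3 lie left of the line, where TMM scaling moves Fos inside it.

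Markers of other cell types were measured in the same conditions. Of the 4 NK cell markers at most 1 was detected in any condition, erythroid markers summed to 0.757 to 5.20 CPM, the 6 T cell markers to 11.7 to 24.9 CPM and the 6 B cell markers to 209 CPM in healthy blood and 22.0 to 124 CPM elsewhere. Ighm alone gave 208 CPM of the B cell sum in healthy blood and 123 CPM in arthritic blood, with Cd79b and Ms4a1 at 0 in both. At the inflamed sites Ighm gave 19.7 to 50.2 CPM. The 11 monocyte and macrophage markers summed to 283 to 389 CPM, with 301 CPM in the joint, 296 CPM in the lung and 389 CPM in the peritoneum against 283 CPM in healthy blood, and 11 of 11 were detected in the joint against 7 or 8 in the other conditions. Single markers went both ways. Adgre1 was at 157 CPM in the peritoneum against 44.5 CPM in healthy blood, and Fcgr1 at 8.06 CPM in the joint against 0.889 CPM. Csf1r was at 80.4, 68.9 and 109 CPM in joint, lung and peritoneum against 166 CPM. The part of such cells in the members' levels was not tested. When cells with 2 or more UMIs of such markers were left out, an alternative chosen after seeing the data, the same 6 members were past 2-fold higher in the joint, the members past 2-fold higher in the lung were Fosl2, Batf, Egr1 and Ier2 (Junb at 1.95-fold was inside), and those in the peritoneum were Batf, Egr1 and Fosl2. Heat shock genes summed to 677 CPM in healthy blood, 682 and 681 CPM in arthritic blood and joint, and 834 and 873 CPM in lung and peritoneum. Of the 4 tested, 0 were past 2-fold in any comparison with healthy blood.

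Healthy blood appeared in all 3 experiments and gives a check across them. Hashtagged healthy blood was at 1.09 times the Fos level of run 1 blood and 0.602 times that of run 2, and at 1.04 and 0.920 times the Junb levels. Against run 1 and run 2 the ratios were 3.50 and 1.77 for Atf3, 2.21 and 1.1 for Fosl2, 1.78 and 2.11 for Jun, 1.25 and 0.900 for Jund, 0.954 and 0.788 for Batf and 0.744 and 0.638 for Ier2. Egr1 and Fosb differed more. Hashtagged blood was at least 13.3-fold higher than run 1 blood for Egr1, counting 0 as 3 UMIs, and 51.1 times run 2 blood (13.1 to 439, from 33 and 2 UMIs), and 3.61 times run 2 blood for Fosb. The reagent chemistry was version 2 in the healthy runs and version 3 here by the study's methods, and chemistry and library cannot be told apart. The cell rules differed too, and 101 of the 509 hashtagged blood cells were under the 3% of S100a8 and S100a9 that chose the healthy cells.

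Within the joint, members were detected in partly different cells. After thinning, Egr1 was found in 52.5% (49.6 to 55.3%) of cells with Fos and 37.4% (35.0 to 39.9%) of cells without it, and Ier2, Junb and Fosl2 were likewise more frequent in cells with Fos, at 37.6% against 27.1%, 79.7% against 68.1% and 52.5% against 40.3%. Jun went the other way, in 14.2% (12.3 to 16.3%) of cells with Fos and 18.3% (16.4 to 20.4%) of those without, and Egr1 was found in 39.0% of cells with Jun and 45.1% of cells without. Atf3 was found in 20.6% and 22.9%, with overlapping intervals. In the peritoneum, Batf was in 50.4% of cells with Fosl2 and 44.6% of cells without, again overlapping. These shares are over cells of 1 pool and describe that pool.

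The deposited ImmGen labels divided the joint cells further. The best-matching reference was GN.Arth.SynF, neutrophils of arthritic synovial fluid, for 2260 joint cells (79.1%), GN.Bl, blood neutrophils, for 255, and GN.Thio.PC, from thioglycollate peritonitis, for 245. Egr1 was at 1094, 554 and 285 CPM in them and Fos at 1060, 1544 and 445 CPM, while Jun was at 204, 119 and 333 CPM. Fos was thus highest in joint cells matched to blood, Egr1 in those matched to synovial fluid and Jun in those matched to thioglycollate peritonitis, with intervals that do not overlap. The labels were assigned from these same counts, so the split is a description. In the peritoneum Batf was at 745 CPM in the 101 cells matched to GN.Arth.SynF and 816 CPM in the 163 matched to GN.Thio.PC, with overlapping intervals (664 to 834 and 731 to 908 CPM), and at 259 CPM in the 19 matched to GN.Bl.

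By cell, the joint also had the most members together. After thinning, at least 1 UMI of 6 or more members was found in 9.07% of joint cells, 4.20% of lung cells and 2.60% of peritoneal cells, against 0.847% and 0.890% in healthy and arthritic blood. The median cell held 3 members at each inflamed site and 2 in both bloods. Cells with 0 members were 1.30% to 3.56% of each condition.

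**Figure D5:**
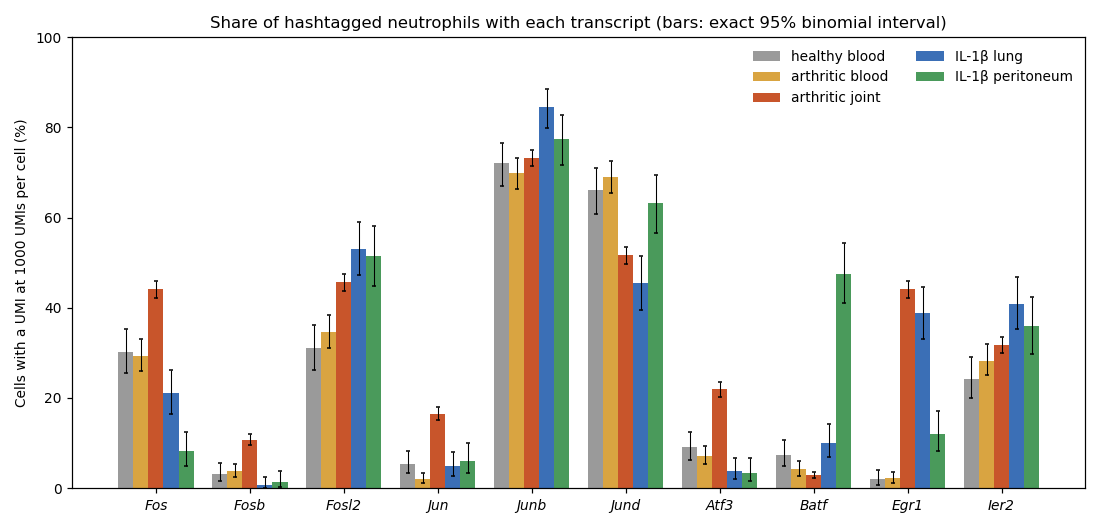
Percent of cells with at least 1 UMI of each member in the 5 hashtagged conditions after thinning each cell to 1000 UMIs, 1 bar per condition with its exact 95% binomial interval. Batf is in 47.6% of peritoneal cells and Egr1 in 44.1% of joint cells, against 7.34% and 1.98% in healthy blood.

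Other genes of the early response were also higher in blood. Of 14 tested among 20 further immediate early genes, 11 were called higher in blood than in marrow and 0 lower (edgeR, background 12.0% and 10.1%), with a median log2 difference of 1.86. The 3 that differed most were Socs3, a feedback inhibitor of cytokine receptors, at 13.6-fold (adjusted p = 0.0029), Dusp1, a phosphatase that inactivates MAP kinases, at 12.3-fold (adjusted p = 0.0022), and Nr4a1, an orphan nuclear receptor, at 11.2-fold (adjusted p = 0.0022). In spleen against marrow 6 of 14 were higher, beside 2.23% of all genes higher and 0.522% lower. In granule-low against granule-high cells 10 of 11 were higher, beside 22.8% and 22.2%. These lists and the members were picked with earlier results of these data known.

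Few of the other bZIP genes and upstream kinases were called. Of 10 tested among 17 further AP-1, ATF and MAF genes, Bach1, a repressor of heme and antioxidant genes, was 2.22-fold higher in blood than in marrow (edgeR adjusted p = 0.0147) and Mafg, a small MAF protein and its partner, 2.64-fold lower (adjusted p = 0.0187). Of 20 tested upstream kinases and serum response factor partners, Map3k5 (3.36-fold) and Map3k8 (2.31-fold) were higher in blood and 0 lower, a share of 2 of 20 beside the 12.0% of all genes. Of 7 heat shock genes, 0 were called in this comparison, with a median log2 difference of -0.28.

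In the inflamed conditions several related genes were far above healthy blood. Maff, another small MAF protein, was 11.1-fold higher than healthy blood in the joint (5.35 to 27.7, from 7 UMIs in blood), 24.0-fold in the lung and 8.69-fold in the peritoneum. Nfil3, a bZIP repressor, was 3.29-fold, 9.71-fold and 2.41-fold higher at the 3 sites, and Jdp2, a Jun dimerization partner, 3.61-fold and 3.41-fold higher in joint and lung, and it was past 2-fold in the peritoneum too, at 263 CPM against 113 CPM. Among immediate early genes, Nr4a3 was 52.2-fold higher in the joint, 28.9-fold in the lung and 60.3-fold in the peritoneum, each against 4 UMIs in healthy blood. Egr2, the relative of Egr1, was 44.3-fold higher in the joint (15.1 to 215, against 3 UMIs) and 20.7-fold in the lung. Ier3 was 29.8-fold higher in the lung, and Dusp2, a MAP kinase phosphatase, 87.8-fold higher in the peritoneum. Map3k8, the kinase that links TNF and Toll-like receptors to ERK, was 5.41-fold higher in lung and 13.3-fold in peritoneum, while Mkl1, a coactivator of serum response factor, was at 0.236 of healthy blood in the joint and at 0.0344 in the lung (0.00919 to 0.0909, 4 UMIs) and 0.0362 in the peritoneum (0.00733 to 0.109, 3 UMIs). In the joint 4 of 8 tested bZIP genes were past 2-fold higher and 0 lower, and 6 of 14 immediate early genes higher and 1 lower, beside 12.2% of all genes higher and 20.3% lower. In the lung the counts were 3 higher and 0 lower of 7 and 6 higher and 1 lower of 15, beside 14.4% and 44.7%, and in the peritoneum 3 higher and 1 lower of 7 and 7 higher and 0 lower of 14, beside 14.5% and 45.5%. Of the upstream kinases and partners, 2 were higher and 5 lower of 13 in the joint, 3 higher and 8 lower of 13 in the lung and 3 higher and 6 lower of 12 in the peritoneum. In these ratios Maff, Nfil3, Nr4a3, Egr2, Dusp2 and Map3k8 reached 50 CPM only through the inflamed site, where they are high, and Mkl1 only through healthy blood. A ratio given for some sites only was among the 3 largest of its list there, and is not thereby particular to them. TMM scaling would raise each of these ratios by the shifts given above.

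The members' own patterns across the 11 groups were compared by Pearson's r of log2 levels (10 CPM added), centred within each of the 3 experiments, as a description over groups that share libraries and totals. Fosl2 and Ier2 were closest to each other (r = 0.973). Fos was nearest to Atf3 (0.884) among the members, and Junb to Jund (0.864). Batf was apart from Fos (-0.09), Atf3 (-0.22) and Fosb (-0.46), and Egr1 from Jund (-0.18). Among the 2045 genes averaging 50 CPM or more, the nearest to Junb were Dusp1 and the cytokine gene Il1b (both r = 0.985). The nearest to Fosl2 was Mxd1 (0.988), a partner of Max, to Jund Trim30b and Gcnt2 (both 0.988), to Jun Csf1 (0.978), to Batf Bcl3 (0.971) and to Egr1 Ube2n (0.980) and Plk3 (0.974). For Fos it was Fmnl1 (0.975), for Atf3 Atp6v0e (0.973) and for Fosb Atp6v0d1 (0.942).

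Some members share their locus with another annotated gene. On GRCm38, Jun (chr4:95049034-95052222) overlaps Junos, Junb (chr8:84974484-84978718) overlaps Prdx2, Jund (chr8:70698949-70700616) overlaps Gm11175 and Atf3 (chr1:191170296-191218039) overlaps Gm24748, each on the opposite strand. Whether the counting used strand is not given in the sources used here, so their counts could hold reads of the partner. The other 6 members overlap 0 annotated genes.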

How the data were processed

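UMI counts per gene and cell were deposited by the authors as raw counts, made with Cell Ranger on mm10 per the submitters' processing notes, and were used as deposited. Per the paper's methods, hashtag doublets had been removed by the authors, no doublet caller was run on the healthy cells here, and free RNA was not corrected. The cell cycle score columns deposited by the authors were not analysed. The number of sample columns not used was 0.

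Counts were summed over cells per library, and CPM was taken over all UMIs of the kept cells, except that levels in the granule-low and granule-high fractions were taken over the 9112 genes listed in both runs, as the fits were, which hold 99.2% to 100% of those UMIs. Healthy tissues and runs were compared with edgeR 4.0.16 (TMM, quasi-likelihood test, filter on low counts, tissue plus run, Benjamini-Hochberg adjustment over all genes tested) in R 4.3.3, and granule-low with granule-high cells with library as a block. A run number marks a shared set of mice, and deviations from the tissue means correlated between tissues of a run (r = 0.514, 0.465 and 0.570 over 7667 genes). Nothing separates mice within a pool. With run as a block, the p-values rest on how far tissue differences disagree between the 2 runs, not on the full spread between pools. Those of the granule fractions rest on how far the difference between fractions varies among the 6 libraries. Alternatives were DESeq2 1.42.0, RLE factors, no filter, other cell rules, no block and each library left out. Hashtagged conditions were described by ratios with exact conditional intervals, which like all Poisson and binomial intervals cover counting error only. Other steps used Python 3.11.15, SciPy 1.17.1, pandas 2.3.3, numpy 2.4.6 and matplotlib 3.10.9, and the tests were tried on simulated data.

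All 10 members are described. Of each list of other genes the 3 called, or past 2-fold, with the largest change per comparison could be named, and of the genes most like a member the nearest 3. The members and lists were chosen with earlier results of these data known.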

Additional observations from a re-analysis of the deposited data

Results flagged for a closer look

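Cells of the healthy libraries outside the neutrophil rule (S100a8 and S100a9 under 3% of UMIs) entered the tests only where every deposited cell was summed or the rule was loosened, and in some libraries they held more of a member than the neutrophils kept. In run 1 marrow, 65 such cells held Jun at 15.22 CPM (0.942 CPM in kept cells) and Batf at 41.31 CPM (13.4 CPM). In run 1 spleen, 84 such cells held Fos at 89.84 CPM (41.7 CPM), Jun at 31.71 CPM (7.44 CPM), Junb at 533.7 CPM (328 CPM) and Jund at 655.3 CPM (387 CPM). In run 2 marrow, 397 such cells held Jun at 23.95 CPM (2.31 CPM), Jund at 481.0 CPM (161 CPM) and Batf at 28.94 CPM (16.5 CPM). In run 2 spleen, 2343 such cells held Egr1 at 12.04 CPM (50 UMIs), against 1 UMI in the 2010 neutrophils kept. In each case the 95% Poisson intervals of the left-out and kept cells did not overlap.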

How the results depend on the processing

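Of the members' values, 72 of 72 for granule fractions kept direction and call under every alternative run, as did 296 of 384 for tissues and 97 of 120 for runs, and 383 of 480 inflamed ratios moved by less than their interval. Removing the run block, which pairs the tissues of a run, left 0 members called in blood against marrow and 0 in spleen against marrow (7 and 5 with it), and 201 and 0 genes in all against 1693 and 211; it ended no call between granule fractions. Summing all cells left 0, 0 and 0 members in blood against marrow, spleen against marrow and between runs, beside 0, 0 and 90 genes in all. Leaving out cells with lineage markers, which keeps 2 cells of run 2 blood and 175 and 1101 of run 1 and run 2 marrow, left 3 members in each of the first 2 comparisons. The quality filter left 3 in spleen against marrow. DESeq2 called 1 member between blood and spleen and 5 between runs, as did 5 without the low-count filter.

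Leaving out single libraries, which leaves a tissue with 1 library assumed to vary like the others, gave 0 to 8 members for blood against marrow (0 without blood of run 2, 2 without blood of run 1), 0 to 6 for spleen against marrow (0 without either blood library, 2 without spleen of run 2), 0 to 2 for blood against spleen (1 without either marrow library, 2 without spleen of run 2) and 2 to 5 between runs (5 without either marrow library). All-gene counts over these alternatives ran from 0 to 2518, 0 to 990, 0 to 434 and 90 to 797 (1693, 211, 4 and 331 as reported), and 1943 to 3298 for granule fractions (2434). Between blood and spleen, leaving out 1 library moved the log2 difference of Atf3 from -0.0880 to 1.2724, Jun from -0.1047 to 1.5998 and Jund from -0.1046 to 1.1789; without spleen of run 1 Jun was at -0.0497.

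Other reversals were small except Jund. Without lineage-marked cells, the log2 differences were -0.0571 (Fosl2) and -0.0146 (Ier2) for blood against marrow, -0.1186 (Batf), -0.0643 (Fosl2), -0.0529 (Junb) and -0.9665 (Jund) for blood against spleen, -0.2862 (Jund) between runs and -0.0442 (Ier2) for spleen against marrow. In granule-low cells they were -0.1591 (Atf3), -0.1097 (Batf), -0.0296 (Jun) and -0.1424 (Jund) for blood against spleen and -0.0345 (Ier2) for spleen against marrow. With all cells they were -0.1281 (Fosl2) and -0.1017 (Ier2) for spleen against marrow. In arthritic blood, TMM scaling, totals without the 20 most abundant genes, the mean over cells and the 3% S100 rule (chosen after seeing the data) each put 0 members past 2-fold, against 1 (Jun, lower). In the lung, TMM scaling put 6 past it (6 higher), totals without those 20 genes 6 (5 higher, 1 lower), and thinning and leaving out lineage-marked cells 5 each (4 higher, 1 lower), against 3 (all higher). The causes were not tested. Jun, Atf3, Fosb and Egr1 rest on 0 to 21 UMIs per marrow library, and a count of 0 there allows up to 0.706 CPM in run 1 and 0.330 CPM in run 2.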
